A study of Caenorhabditis elegans with 4 samples.

Results

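The lysozyme genes described here are the 10 genes named lys-1 to lys-10 in WormBase, found in the gene count table through their sequence names. All 10 were matched, among 46643 genes in the table. Total RNA was taken from whole wild-type (N2) C. elegans at adult day 1, after growth from synchronised first-stage larvae at 25 °C on plates seeded with OP50, an Escherichia coli strain used as food. 2 libraries came from ketamine-treated animals (2.5 mM ketamine) and 2 from control animals (M9 buffer as vehicle, 0 mM ketamine). The labels do not say how many animals or separate cultures stand behind a library, so p-values measure the spread between these libraries, which may be technical. Ketamine is an anesthetic, and the comparison asks which transcripts differ when animals develop on it. The authors report that ketamine delayed development and left treated plates with animals of mixed stages. Whether the libraries of the groups differ in stage was not tested.

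Lysozymes cut the peptidoglycan of bacterial cell walls. C. elegans feeds on bacteria, and its intestine secretes lysozymes that take part both in digestion of the food and in defence against infection. The genome holds a lys family, related to the lysozymes of amoebae and other protists, and a separate ilys family of the invertebrate type. Several intestinal pathways are known to control these genes, among them the p38 MAP kinase PMK-1, the insulin-like receptor DAF-2 with its transcription factor DAF-16, and the BMP ligand DBL-1.

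The counts summed to 34533449 and 29192110 in the ketamine libraries, against 43419202 and 36241505 in the controls. Control 1 stood apart: across the 15793 genes tested its log2 CPM (counts scaled to a common library size) correlated at 0.961 to 0.969 with the other libraries, whereas those correlated at 0.986 to 0.994 with each other. The summed level of the 7 intestine markers elt-2, ges-1, vha-6, pept-1, act-5, ifb-2 and gtl-1 was 1053 and 1016 CPM under ketamine, against 856 and 1168 CPM in controls, with 0 of the 7 called in either direction by edgeR and 0 under 0.05 before adjustment. The 6 vitellogenins, yolk proteins made by the adult intestine, summed to 65145 and 65033 CPM under ketamine, against 42802 and 76851 CPM in controls. Of these genes 2 (vit-1 and vit-3) were lower at an edgeR p under 0.05 before adjustment, as were 3.32% of all tested genes. Both sums were lowest in Control 1. The vitellogenin sum was low there through vit-2, vit-5 and vit-6. In vit-1, vit-3 and vit-4 each ketamine value was lower than each control value. For the intestine sum the low value rested on act-5. That gene was at 476 and 467 CPM under ketamine, against 166 CPM in Control 1 and 524 CPM in Control 2. elt-2 and ges-1 were also lowest in Control 1, but vha-6, ifb-2 and gtl-1 were highest there (375, 127 and 58.0 CPM). For vha-6, ifb-2 and gtl-1 each ketamine value was lower than each control value, and for ges-1 each was higher. Of all tested genes 20.6% lay lower in this way and 23.1% higher. The part of both sums in the results below was not tested. As the animals were sequenced whole, a change in intestinal RNA cannot be told apart from a change in the RNA of other tissues.

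The family fell into an abundant and a scarce class. Levels between genes are compared as FPKM, the authors' fragment counts per kilobase of gene and per library size. lys-1, lys-2, lys-4, lys-7 and lys-8 lay between 129 and 463 FPKM in all 4 libraries. lys-3, lys-5, lys-6 and lys-10 lay between 0.520 and 5.42 FPKM, from 13 to 176 counts in a library. No value fell between the classes. By mean FPKM over the libraries lys-1 ranked 253rd among all genes of the table, lys-8 349th, lys-4 611th, lys-2 622nd and lys-7 771st, while the scarce members ranked between 10422nd (lys-5) and 12286th (lys-3). lys-9 was all but undetected.

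**Figure D1:**
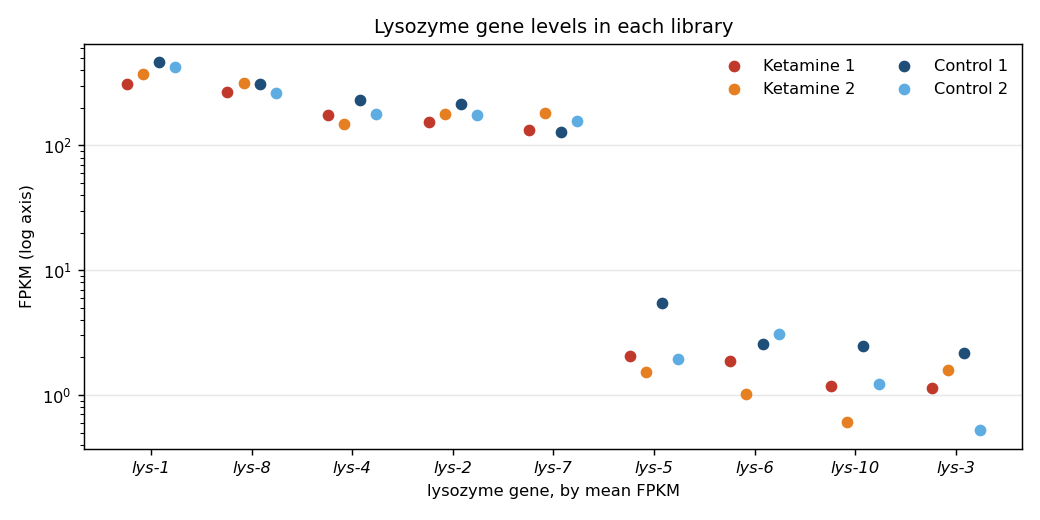
FPKM of 9 lysozyme genes (log axis) in each of the 4 libraries, 1 point a library, ordered by mean FPKM. The abundant class spans 129 to 463 FPKM and the scarce class 0.520 to 5.42 FPKM, and lys-9, with 2 counts in 1 library and 0 in the others, is not drawn.

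The abundant members came in the order lys-1, lys-8, lys-4, lys-2 and lys-7 in 3 of the 4 libraries. In Ketamine 2 lys-7 was the third. The ranges of lys-1 (309 to 463 FPKM) and lys-8 (264 to 317 FPKM) overlapped across libraries, although lys-1 was the higher of the pair within each library. lys-4 (150 to 231 FPKM), lys-2 (153 to 217 FPKM) and lys-7 (129 to 182 FPKM) could not be ordered beyond their spread.

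Counts were compared gene by gene with edgeR (quasi-likelihood test, p-values adjusted by Benjamini-Hochberg over 15793 genes), and 0 of the 9 lysozyme genes with enough counts were called higher and 0 lower under ketamine. For a call, the adjusted p had to be under 0.05 and the change 2-fold or more, which 0.095% of all tested genes passed in the higher direction and 0% in the lower direction. Before adjustment, 0 of 9 in either direction had a p under 0.05, where 2.77% of all genes were higher and 3.32% lower. DESeq2 called 0 of the 9, where 0.649% of its genes were called higher and 0.145% lower, and 0 had a p under 0.05 before adjustment. The adjusted p-values of the 9 genes ran from 0.748 to 0.998 in edgeR. 6 of the 9 log2 fold changes (log2FC, ketamine over control) were below 0 and 3 above, with a median of -0.34. Of those above, lys-3 and lys-8 were below 0 with upper-quartile factors, which put the median of all genes at -0.10, and with library totals alone, which put it at -0.04. Over all genes tested 50.5% were below 0, with a median of -0.01. Relative to the mean of the controls, the median member lay at -0.35 and -0.24 on the log2 scale in the ketamine libraries, against 0.15 and -0.15 in the controls. The median moved to -0.15 without Control 1 and to -0.51 without Control 2. In the fit without Control 2 calls rose over all genes, so a call there cannot be read as particular to the lysozymes. For 2 libraries against 2, the smallest two-sided p of an exact permutation test is 0.333.

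In 4 of the 9 genes, lys-1, lys-4, lys-6 and lys-10, both ketamine libraries lay below both controls, which 20.6% of all tested genes did. In 0 of the 9 both lay above, which 23.1% of all genes did.

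**Figure D2:**
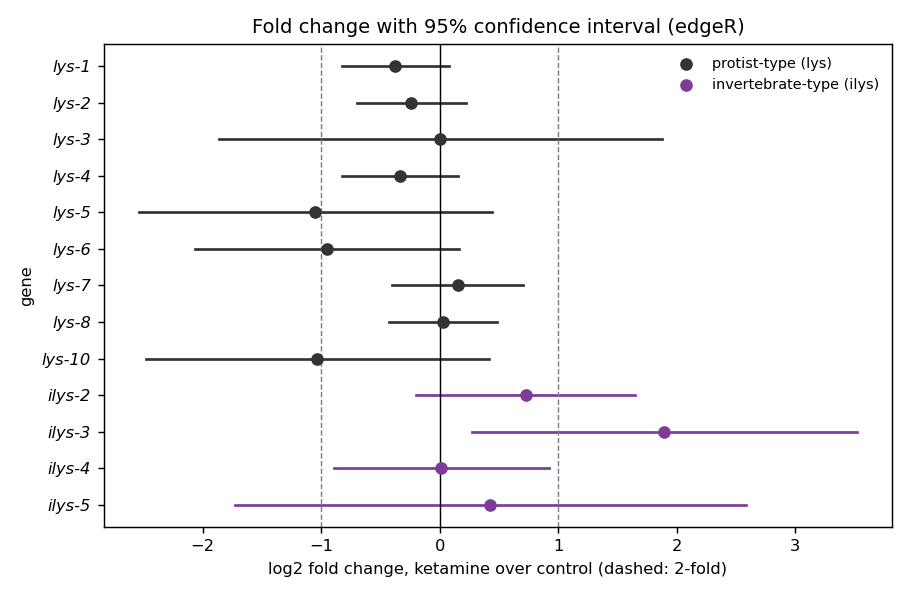
Log2FC of ketamine over control (x axis) for the 9 lys and 4 ilys genes tested, with bars for the 95% confidence interval from edgeR and dashed lines at 2-fold. All 9 lys intervals include 0, and those of the 5 abundant members lie inside the 2-fold lines.

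lys-1 (Y22F5A.4, chromosome V, 10277827 to 10279127 in WBcel235, plus strand, 2 exons) is an intestinal lysozyme known to be induced when animals feed on Serratia marcescens. It had 11792 and 12137 counts (309 and 375 FPKM) in ketamine-treated animals, against 23874 and 16673 counts (463 and 425 FPKM) in controls. Both ketamine libraries lay below both controls, with means of 383 ± 52.4 CPM under ketamine and 497 ± 29.4 CPM in controls (SD, n = 2 each). The log2FC was -0.38 (SE 0.17, edgeR adjusted p = 0.748), a fold of 0.771 with a 95% confidence interval of 0.564 to 1.05. With each library left out in turn the value ranged from -0.52 to -0.24.

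lys-2 (Y22F5A.5, chromosome V, 10280310 to 10281470, minus strand, 2 exons) lies next to lys-1, 1182 bases away. It had 4883 and 4832 counts (153 and 179 FPKM) in ketamine-treated animals, against 9318 and 5777 counts (217 and 176 FPKM) in controls. Here the groups overlapped, as Ketamine 2 was above Control 2, and the highest library was Control 1. The log2FC was -0.24 (SE 0.18, edgeR adjusted p = 0.748), with a 95% interval for the fold of 0.615 to 1.16. It was -0.11 without Control 1, -0.13 without Ketamine 1 and -0.38 without Control 2.

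lys-3 (Y22F5A.6, chromosome V, 10282204 to 10283448, minus strand, 3 exons) completes this group of 3 lysozyme genes, which spans 5.62 kb with no other gene of the table starting between them. In contrast to its neighbours it was scarce, with 36 and 43 counts in ketamine-treated animals, against 93 and 17 counts in controls. Its level in Control 1 was 4.15-fold that in Control 2, so the controls enclosed both ketamine libraries. The log2FC was 0.00 (SE 0.72, edgeR adjusted p = 0.998). It was 1.35 without Control 1 and -0.67 without Control 2, so its direction under ketamine was not determined by these libraries.

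A second group of 3, lys-4, lys-5 and lys-6, lies on chromosome IV in 6.50 kb, all on the minus strand and with 2 exons each. The only other gene of the table that starts among them is a piRNA locus inside lys-4 (21ur-8714), with at most 13 counts in a library. All 3 had a log2FC below 0, and none was called.

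lys-4 (F58B3.1, chromosome IV, 11621443 to 11623124) had 4339 and 3170 counts (174 and 150 FPKM) under ketamine, against 7784 and 4578 counts (231 and 178 FPKM) in controls. The groups did not overlap, but Ketamine 1 came close to Control 2. The log2FC was -0.34 (SE 0.19, edgeR adjusted p = 0.748), with an interval for the fold of 0.564 to 1.11. With each library left out in turn the log2FC ranged from -0.51 (without Control 2) to -0.17 (without Control 1).

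lys-5 (F58B3.2, chromosome IV, 11624255 to 11625582) had 49 and 31 counts in ketamine-treated animals, against 176 and 48 counts in controls. Control 1 was 2.78-fold above Control 2, which itself lay between the ketamine libraries once scaled to library size (1.44 and 1.07 CPM under ketamine, against 3.82 and 1.37 CPM in controls). The log2FC of -1.05 (SE 0.58, edgeR adjusted p = 0.748) became -0.15 without Control 1 and -1.59 without Control 2, where edgeR called it (adjusted p = 0.00902). The low value of lys-5 thus rested on Control 1.

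lys-6 (F58B3.3, chromosome IV, 11626910 to 11627947) had 46 and 21 counts in ketamine-treated animals, against 84 and 78 counts in controls. After scaling these were 1.35 and 0.727 CPM under ketamine, against 1.82 and 2.23 CPM in controls, with no overlap. The log2FC was -0.95 (SE 0.43, edgeR adjusted p = 0.748). Unlike lys-5 it did not lean on Control 1, being -1.11 without that library and -0.58 without Ketamine 2. Its interval for the fold ran from 0.239 to 1.12.

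lys-10 (F17E9.11, chromosome IV, 8332826 to 8333559, plus strand, 1 exon) had 30 and 13 counts in ketamine-treated animals, against 84 and 32 counts in controls. Scaled to library size, Ketamine 1 (0.881 CPM) lay just below Control 2 (0.914 CPM), while Ketamine 2 was at 0.450 CPM and Control 1 at 1.82 CPM. Each group held a spread of about the size of the fold between groups: Ketamine 1 was 1.96-fold Ketamine 2, and Control 1 was 1.99-fold Control 2. The log2FC was -1.03 (SE 0.56, edgeR adjusted p = 0.748). With each library left out in turn it ranged from -1.60 (without Ketamine 1) to -0.47 (without Control 1).

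lys-7 and lys-8, known as targets of the insulin-like pathway and as genes induced by bacterial infection, both had a log2FC near 0. lys-7 (C02A12.4, chromosome V, 3481419 to 3482602, minus strand, 3 exons) had 4232 and 4892 counts (134 and 182 FPKM) under ketamine, against 5496 and 5076 counts (129 and 156 FPKM) in controls. Its log2FC was 0.15 (SE 0.21, edgeR adjusted p = 0.821), and it was below 0 without Control 1 (-0.01) and without Ketamine 2 (-0.09). The 4 libraries of lys-7 alternated between the groups, and the fold had an interval of 0.758 to 1.63.

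lys-8 (C17G10.5, chromosome II, 5586165 to 5587652, plus strand, 3 exons) had 9096 and 9134 counts (268 and 317 FPKM) under ketamine, against 14234 and 9199 counts (311 and 264 FPKM) in controls. The ketamine libraries held both the highest and the third value. The log2FC was 0.03 (SE 0.18, edgeR adjusted p = 0.962), with an interval for the fold of 0.744 to 1.40. For the 5 abundant members, these intervals do not reach 2-fold in either direction, whereas those of the 4 scarce members reach from 0.173 (lys-5) to 3.66 (lys-3).

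lys-9 (C54C8.6, chromosome I, 12454853 to 12455826, minus strand) had 2 and 0 counts in ketamine-treated animals, against 0 and 0 counts in controls, and was not tested. A count of 0 allows up to 3 counts in a library, which is 0.104 CPM in Ketamine 2, against 0.0651 CPM in Control 1 and 0.0857 CPM in Control 2. Expression of lys-9 was not detectable at this depth outside Ketamine 1. Such limits cover counting error only.

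**Figure D3:**
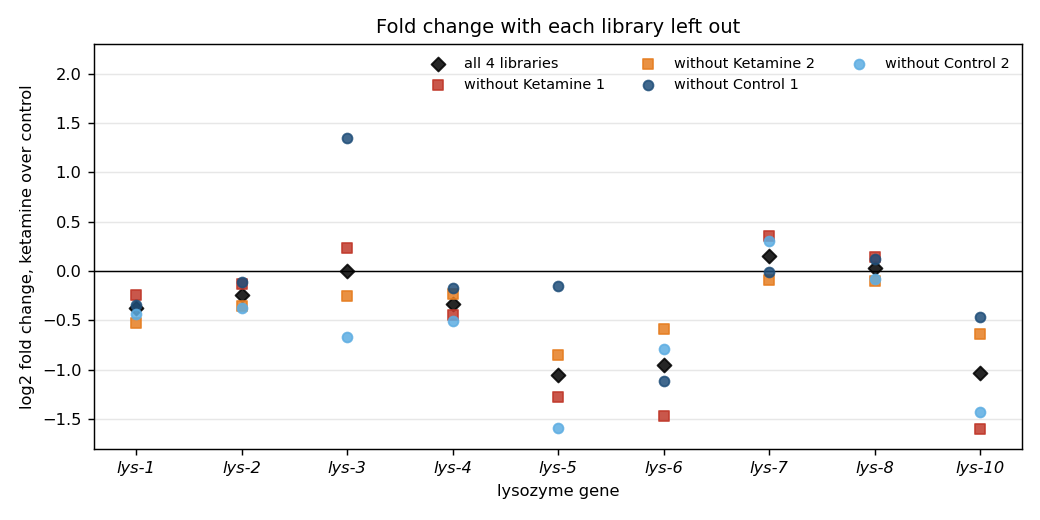
Log2FC of ketamine over control (y axis) for each lysozyme gene tested, from all 4 libraries (diamonds) and with 1 library left out in turn (squares for a ketamine library, circles for a control). lys-1, lys-2, lys-4, lys-5, lys-6 and lys-10 stay below 0 in every setting drawn, whereas lys-3 spans -0.67 to 1.35.

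Summed over the 10 genes, lysozymes had 1013 and 1187 CPM in ketamine-treated animals, against 1327 and 1185 CPM in controls, so that Ketamine 2 and Control 2 were nearly equal. This was 0.0999% (95% Wilson interval 0.0989 to 0.101) and 0.117% (0.116 to 0.119) of all counts under ketamine, against 0.141% (0.140 to 0.142) and 0.114% (0.113 to 0.116) in controls, intervals that cover counting error only. The scarce members together made up 0.597% and 0.392% of the summed lysozyme FPKM under ketamine, against 0.924% and 0.563% in controls.

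Within the family the balance between lys-1 and lys-8 differed between the groups. The FPKM of lys-8 was 0.868 and 0.847 of that of lys-1 in ketamine-treated animals, against 0.671 and 0.621 in controls. lys-1 made up 29.6% and 31.0% of the summed lysozyme FPKM under ketamine, against 34.0% and 35.2% in controls. For the neighbours lys-1 and lys-2, lys-1 was at 2.02 and 2.10 times the FPKM of lys-2 under ketamine, against 2.14 and 2.41 times in controls. These ratios were chosen after the values were seen and were given no test.

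**Figure D4:**
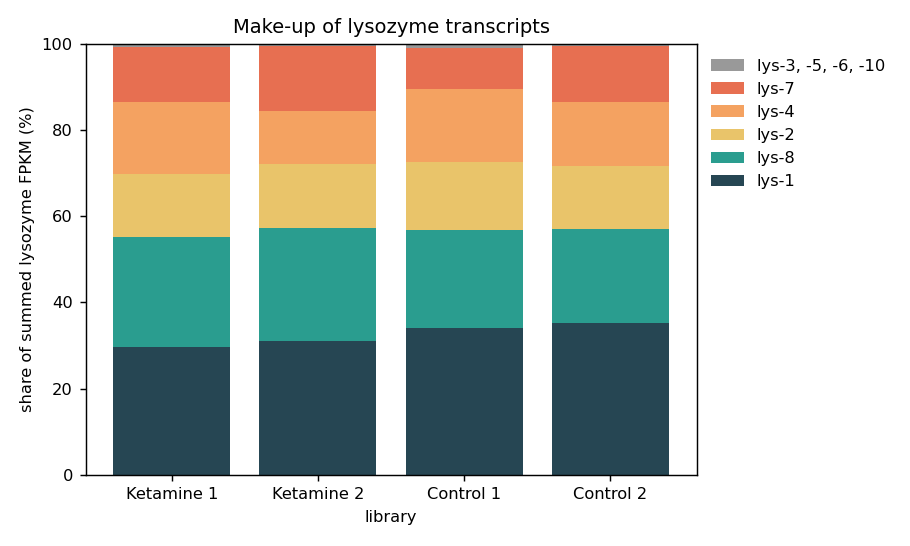
Share of each gene in the summed FPKM of the lysozyme genes (y axis, %) in each library. The lys-1 segment is 29.6% and 31.0% high in the ketamine libraries, against 34.0% and 35.2% in the controls, and the scarce members stay under 1% throughout.

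The genes whose profile over the 4 libraries was most like that of lys-1 were C11E4.7, elo-6 (a fatty acid elongase), T23B12.11, ZK512.7 and suca-1 (a subunit of succinyl-CoA synthetase). Likeness was the Euclidean distance between mean-centred log2 CPM profiles among 7266 genes with a mean FPKM of at least 10. The distance of these 5 genes to lys-1 was 0.0502 to 0.0889. lys-2 was at 0.192, the 74th nearest, and lys-4 was the 1325th, lys-8 the 1657th and lys-7 the 3964th. With only 4 libraries these ranks describe the libraries and no more.

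Of the 6 invertebrate-type ilys genes 4 were tested, and edgeR called 0, with 1 (ilys-3) higher at p under 0.05 before adjustment. All 4 had a log2FC above 0, with a median of 0.58, although ilys-4 was below 0 with upper-quartile factors or library totals alone. ilys-3 (C45G7.3, chromosome IV, 2464471 to 2465440), which encodes an enzyme with lysozyme activity in pharynx and intestine, had 39 and 14 counts in ketamine-treated animals, against 12 and 6 counts in controls. Both ketamine libraries were above both controls, and the log2FC was 1.89 (SE 0.63, edgeR adjusted p = 0.748). It was 1.14 without Ketamine 1 and 0.85 with limma on log2(FPKM + 1).

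ilys-5 (F22A3.6, chromosome X, 6535524 to 6536840) was as abundant as the abundant lys genes in 3 of the 4 libraries, with 355 and 347 FPKM under ketamine, against 67.3 and 454 FPKM in controls. The controls thus differed by more than the groups, and Control 1 was the low library. The log2FC of 0.43 (SE 0.83, edgeR adjusted p = 0.873) became -0.40 without Control 1 (adjusted p = 0.0155) and 2.39 without Control 2 (adjusted p = 3.56e-06), where edgeR called it higher. ilys-2 (C45G7.2) had 141 and 105 counts (4.14 and 3.64 CPM) under ketamine, against 82 and 103 counts (1.78 and 2.94 CPM) in controls. In ilys-2, as in ilys-3, both ketamine libraries were above both controls, which 23.1% of all tested genes showed. The log2FC of ilys-2 was 0.72 (SE 0.36, edgeR adjusted p = 0.748). It was 0.38 without Control 1 and 1.13 without Control 2, where edgeR called it (adjusted p = 0.0234). ilys-4 (C55F2.2) had a log2FC of 0.01 and overlaps the protein-coding gene atic-1 on the opposite strand. ilys-6 had at most 2 counts in a library and ilys-1 had 0 in all 4.

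Other effectors of the intestinal defence showed values in both directions, and edgeR called 0 of them. Of 23 saposin-like spp genes, which encode small membrane-permeabilising proteins, 16 were tested. Before adjustment 3 of these were higher (spp-2, spp-8 and spp-15) and 1 lower (spp-17) at p under 0.05, and the median log2FC was 0.37. At that p 2.77% of all tested genes were higher and 3.32% lower, which is the background for the other lists too. Control 1 was far below the other libraries in some spp genes, such as spp-4 (13.9 and 14.4 CPM under ketamine, against 2.63 and 10.7 CPM in controls). The part of Control 1 in the median was not tested. spp-2 had 767 and 684 counts in ketamine-treated animals, against 311 and 275 counts in controls, a log2FC of 1.66 (SE 0.22, edgeR adjusted p = 0.239). DESeq2 called spp-2 (adjusted p = 1.9e-05). At the other end spp-17 had 3425 and 3113 counts under ketamine, against 6833 and 6368 counts in controls, a log2FC of -0.66 (SE 0.17, edgeR adjusted p = 0.748). spp-5, a pore-forming intestinal protein, had a log2FC of 0.04.

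Among the 6 antibacterial factor genes 3 were tested, with log2FC values from -0.40 for abf-6 to 1.69 for abf-2, and abf-2 alone had a p under 0.05 before adjustment. Of 16 infection response genes 15 were matched and 14 tested. Before adjustment 1 was higher (clec-67) and 2 lower (clec-4 and dod-17) at p under 0.05, and the median was 0.08. clec-4, a C-type lectin, had 67 and 41 counts under ketamine, against 214 and 124 counts in controls, a log2FC of -1.27 (edgeR adjusted p = 0.748). clec-67, another C-type lectin, had 649 and 834 counts under ketamine, against 465 and 306 counts in controls, a log2FC of 1.35 (edgeR adjusted p = 0.685), and DESeq2 called it (adjusted p = 0.0231).

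**Figure D5:**
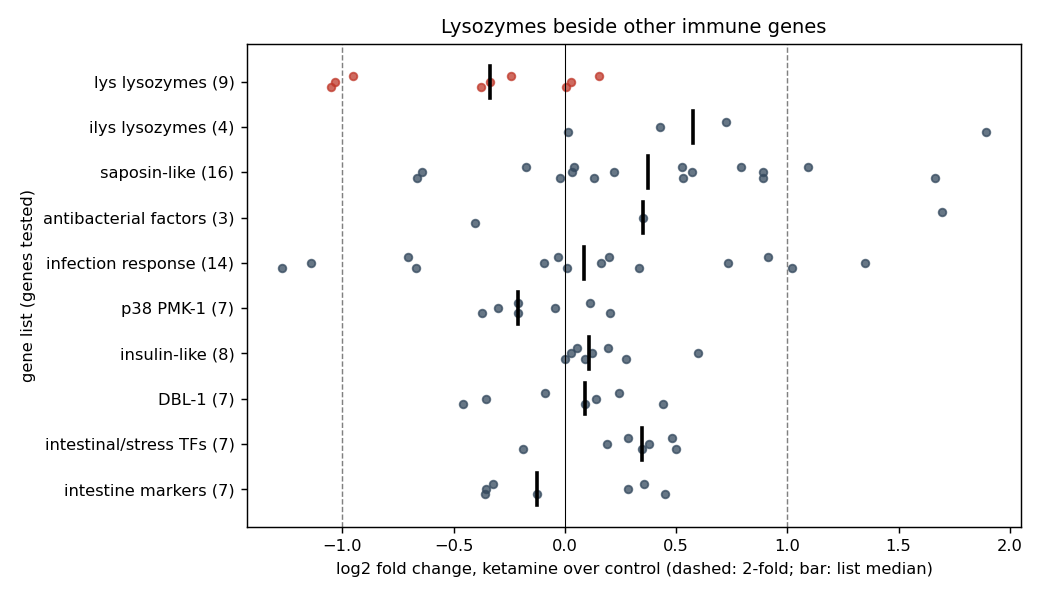
Log2FC of ketamine over control (x axis) of each tested gene in the lysozyme list and in 9 other lists (number tested in brackets), with a bar at the list median. The median is -0.34 for the lys genes, 0.58 for the ilys genes and 0.37 for the saposin-like genes, and 0 genes of these 10 lists were called by edgeR.

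Of the regulators of these genes edgeR called 0, with 0 under 0.05 before adjustment. In the p38 pathway 7 of 7 genes were tested, from -0.37 for the receptor fshr-1 to 0.20 for the phosphatase vhp-1, with a median log2FC of -0.21. pmk-1 itself was at 15.9 and 17.6 CPM under ketamine, against 23.1 CPM in Control 1 and 15.6 CPM in Control 2, a log2FC of -0.21. The 8 genes of the insulin-like pathway ran from 0.00 for the kinase akt-2 to 0.60 for the kinase pdk-1, and daf-16 was at 0.05. pdk-1 had 613 and 599 counts under ketamine, against 354 counts in Control 1 and 629 counts in Control 2. The 7 genes of the DBL-1 pathway ran from -0.46 for the Smad sma-4 to 0.44 for the receptor daf-4. Among 7 intestinal and stress transcription factors the values ran from -0.19 for bar-1, a beta-catenin, to 0.50 for hlh-30, the TFEB homologue. hlh-30 had 56.7 and 56.4 CPM under ketamine, against 20.1 CPM in Control 1 and 59.9 CPM in Control 2. Control 1 alone was thus low in hlh-30, as it was in pdk-1. elt-2, the GATA factor of the intestine, was at 0.29, with 494 and 376 counts under ketamine, against 433 and 462 counts in controls.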

How the data were processed

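The authors aligned the reads to WBcel235 with HISAT2 2.0.5, assembled them with StringTie 1.3.3b and counted them with featureCounts 1.5.0-p3. They deposited raw counts per gene, without normalization, and FPKM values for the same genes. The library kit was stranded, and the strand setting of the counting and its handling of reads that match several genes are not given in the sources used here. Whether reads were shared between neighbouring lysozyme genes was not tested. Columns named for the wild type were taken as the controls of the same number. Symbols came from the Ensembl and RefSeq annotations of WBcel235, and coordinates and lengths are those of the deposited table. No sequences were used here.

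The test was edgeR's quasi-likelihood F test (version 4.0.16, R 4.3.3) with TMM scaling over total counts, run on the 15793 genes that had 10 counts or more in 2 or more libraries. SE values were computed as log2FC over the root of F. CPM values use the scaled library sizes, and 0.5 was added before taking log2. The alternatives were DESeq2 1.42.0, other scaling factors, no count filter, a replicate block, unadjusted p-values, limma 3.58.1 on log2(FPKM + 1) and log2(FPKM + 0.1), and leaving out each library. Tables were summarised in Python 3.11.15. The members and lists were chosen with earlier results of these data known. Named were all lys and ilys genes, the ends of other lists, the 5 profiles nearest to the most abundant member, and genes starting between clustered members. Other named genes were chosen after their values were seen.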

Additional observations from a re-analysis of the deposited data

How the results depend on the processing

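The 2 libraries per group limit the precision, and so do the low counts of the scarce lysozyme genes. Over 117 log2 fold changes of the lys genes under the alternatives, 105 kept their direction and their side of the threshold. The 9 of the setting with unadjusted p-values are those of the main fit, so their direction could not change. The 11 changes of sign were in lys-3, lys-7 and lys-8. With upper-quartile factors lys-3 was at -0.12, lys-8 at -0.0746 and ilys-4 at -0.10, with library totals alone lys-3 was at -0.0682, lys-8 at -0.0134 and ilys-4 at -0.0423, and without a count filter lys-3 was at -0.0197 and ilys-4 at -0.0141. With each library left out in turn, lys-3 ranged from -0.67 to 1.35, lys-7 from -0.0889 to 0.36, lys-8 from -0.0981 to 0.15, ilys-4 from -0.32 to 0.43, ilys-5 from -0.40 to 2.39 and the median of the lys genes from -0.51 to -0.15. In these fits the lone library of a group is assumed to vary like the pair of the other. The number of lys genes called lower was 0 to 1 (lys-5, without Control 2, log2 fold change -1.59, edgeR adjusted p = 0.00902), and 0 were called in every other setting run. Over all genes, leaving out a library gave 21 to 1725 calls higher and 0 to 678 lower, both largest without Control 2, against 15 and 0 with all 4. DESeq2 called 107 higher and 24 lower, edgeR without a count filter 67 and 6, limma on log2(FPKM + 1) 24 higher, and unadjusted p-values gave 323 and 258. The replicate numbers were not taken to pair the libraries: deviations of same-numbered libraries from their group means correlated at 0.0584 across genes, and with a replicate block edgeR called 34 genes higher and 0 lys genes.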

Other observations

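The pharynx grinds bacteria before they reach the intestine, where the lysozymes act. Of 5 pharynx markers tested, edgeR called 0, and 2 were lower under ketamine at p under 0.05 before adjustment. Over all tested genes 3.32% were lower at that p. myo-1, a pharyngeal myosin, was at 32.6 and 35.5 CPM in ketamine-treated animals, against 61.2 and 69.8 CPM in controls (log2 fold change -0.94, SE 0.17, edgeR adjusted p = 0.557). tni-4, a pharyngeal troponin, was at 23.4 and 23.6 CPM in ketamine-treated animals, against 34.2 and 32.3 CPM in controls (log2 fold change -0.50, SE 0.18, edgeR adjusted p = 0.748). In myo-1, myo-2 and tni-4 both ketamine libraries were below both controls, which 20.6% of all tested genes showed. In ceh-22 (log2 fold change 0.12) and pha-4 (0.05) the groups overlapped. Values below 0 were not particular to the pharynx. All 5 body wall muscle markers were below 0 (median -0.34), as were 5 of 6 sperm markers (median -0.39). Both ketamine libraries were below both controls in 1 of the muscle markers (myo-3) and in 4 of the sperm markers. In unc-54, tni-1 and hlh-1 the ketamine libraries lay between the controls, with Control 2 the highest. unc-54 was at 1290 and 1230 CPM under ketamine, against 1037 CPM in Control 1 and 2163 CPM in Control 2. In both lists 0 had an edgeR p under 0.05 before adjustment. Among 9 oocyte and eggshell markers all log2 fold changes were above 0, from 0.01 for chs-1 to 0.76 for perm-2, and 0 were called or had a p under 0.05 before adjustment. perm-2 was at 843 and 901 CPM under ketamine, against 52.3 CPM in Control 1 and 977 CPM in Control 2, so its positive value came from Control 1. In 5 of the 9 (cbd-1, rme-2, puf-5, oma-1 and oma-2) both ketamine libraries were above both controls, which 23.1% of all tested genes showed.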
